A study of Mus musculus with 6 samples.

Results

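Rsad2 and Irf7 both rose in mouse macrophages after 4 h of bacterial lipopolysaccharide (LPS), Rsad2 by 13.3-fold and Irf7 by 3.84-fold. They belong with Isg15 to the interferon-stimulated genes, and the 3 were taken by their Ensembl transcript identifiers. Rsad2 was read from ENSMUST00000020970_at and Irf7 from ENSMUST00000026571_at. The identifier for Isg15, ENSMUST00000085425_at, had no row in the table used here, so 2 of the 3 were measured, out of 74007 transcript rows in all, and the level of Isg15 is not analysed here. The table carries identifiers without symbols, and the pairing of these identifiers with gene symbols comes from their choice and could not be checked against an annotation.

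Bone marrow from the femurs of female C57BL/6J mice, 8 to 12 weeks old and on normal chow, was grown into macrophages in medium holding 50 ng/mL of recombinant human M-CSF, the growth factor that drives macrophage differentiation. Both groups were given this factor. One group of 3 cultures stayed unstimulated. The other group of 3 had LPS, the outer-membrane molecule of Gram-negative bacteria, in its medium at 10 ng/mL from day 7. Per the series text, 3 animals each gave a culture to both groups, so the comparison rests on 3 animals, with 1 Affymetrix mouse exon array per culture. Each value is a log2 signal for a transcript-level set of probes, so a difference of 1 is a 2-fold change. The whole-array medians lay between 7.91 and 7.92 without and between 7.75 and 7.77 with LPS. Whether the cells expressed macrophage markers was not checked, because marker genes could not be matched to the identifiers.

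LPS is sensed by TLR4, which signals through the adaptor MyD88 to NF-kB and through the adaptor TRIF to the transcription factor IRF3. IRF3 switches on interferon-beta, which leaves the cell, binds the type I interferon receptor and signals to the nucleus. There the interferon-stimulated response element (ISRE) in the promoters of interferon-stimulated genes is bound. Isg15 encodes a ubiquitin-like protein that is joined to other proteins. Rsad2 encodes viperin, a radical SAM enzyme that converts CTP into a chain-terminating nucleotide and so restricts viruses. Irf7 encodes a transcription factor that, once phosphorylated, drives further interferon genes and amplifies the response.

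The promoters are shown because Rsad2 and Irf7 rose together and interferon-stimulated genes are known for the ISRE. Each window runs from 250 bases before to 50 bases after the RefSeq start site in build GRCm38.p6 and is read on the gene's own strand, 5′ to 3′. All 3 genes were matched by symbol in the RefSeq promoter table, with 1 window each. Capitals mark the ISRE core, searched as GAAANNGAAA on both strands. On the opposite strand the core reads as TTTC repeats. For Isg15 only the stretch with its cores and 10 bases either side is given, since its expression was not measured.
Rsad2, chr12:26456403-26456702, minus strand: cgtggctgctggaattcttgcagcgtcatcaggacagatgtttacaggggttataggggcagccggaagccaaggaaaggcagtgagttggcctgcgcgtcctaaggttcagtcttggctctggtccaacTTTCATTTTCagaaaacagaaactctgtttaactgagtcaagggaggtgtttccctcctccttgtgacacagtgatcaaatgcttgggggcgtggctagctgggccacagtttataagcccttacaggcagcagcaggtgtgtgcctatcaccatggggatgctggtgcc
Irf7, chr7:141266375-141266674, minus strand: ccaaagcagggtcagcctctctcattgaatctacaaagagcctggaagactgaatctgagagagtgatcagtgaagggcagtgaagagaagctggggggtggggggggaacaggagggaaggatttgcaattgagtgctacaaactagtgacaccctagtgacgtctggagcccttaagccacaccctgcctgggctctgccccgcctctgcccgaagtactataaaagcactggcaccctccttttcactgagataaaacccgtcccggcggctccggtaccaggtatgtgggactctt
Isg15, chr4:156200865-156200906, minus strand: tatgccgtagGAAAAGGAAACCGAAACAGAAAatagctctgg

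The Rsad2 window held 1 ISRE core, TTTCATTTTC, on the strand opposite to the gene, from 120 to 111 bases before the start site. The Isg15 window held 3 overlapping cores from 78 to 57 bases before its start, GAAAAGGAAA, GAAACCGAAA and GAAACAGAAA, which together make 2 matches to the longer form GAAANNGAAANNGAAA. The Irf7 window held 0 cores, which says only that these letters are not in this window. The start site used for Irf7, at base 141266424 on the minus strand, lies downstream of the gene's outermost annotated start at 141266499. The window reaches to 141266674 and so contains that outer start. It holds a shorter stretch before the outer start than before the start used. No separate window was searched for other starts. None of the 3 windows held the interferon-gamma activated site TTCNNNGAA or the NF-kB consensus on either strand. The GC content was 53.0% for Rsad2, 55.0% for Irf7 and 46.3% for Isg15.

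Among all 27025 genes of the promoter table, 3.99% held an ISRE core in at least 1 window and 0.133% held the longer form, which contains the core. The activated site was found for 9.55% of genes and the NF-kB consensus likewise for 9.55%. In a list of 30 antiviral effectors and other interferon-stimulated genes, 25 had a window and 15 of those (60.0%) held the core, among them Ifit1, Ifit3, Oas1a, Eif2ak2 and Cxcl10. Among 7 genes of interferon receptor signalling with a window, Stat2 and Socs1 held the core. The core was in 0 of 4 genes that conjugate ISG15 to proteins, in 0 of 6 on the route from TLR4 to interferon-beta and in 0 of 9 early NF-kB targets. With the core in 3.99% of all genes, 0 is the likeliest count in lists this short, so these counts do not set the lists apart. The NF-kB consensus was in 5 of the 9 genes of the last list, namely Il6, Cxcl1, Cxcl2, Nfkbia and Tnfaip3. It was also in 9 of the 25 antiviral effectors (36.0%) and in 2 of the 6 genes on the route to interferon-beta, Ifnb1 and Traf3, so the motifs were not divided cleanly between the lists. The activated site was likewise in 9 of the 25 effectors and in 2 of the 7 receptor signalling genes, Ifnar1 and Ifnar2. A match is a run of letters and not evidence of binding, and the lists were drawn up from known biology, so these shares describe the lists only. None of these genes could be given an expression value here.

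**Figure D1:**
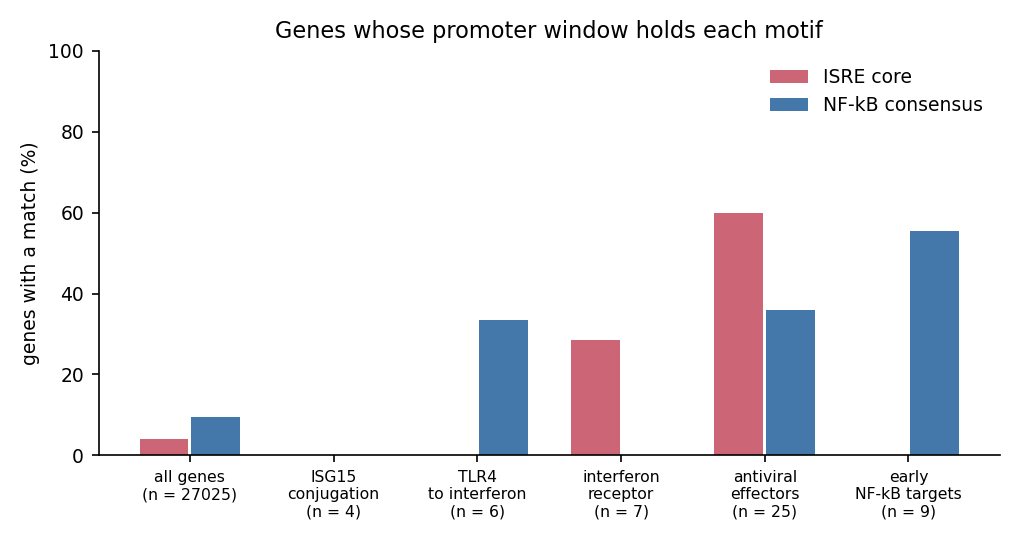
Share of genes (%, linear axis from 0) with at least 1 promoter window holding the ISRE core (red) or the NF-kB consensus (blue), for all 27025 genes and for 5 pathway lists; n is the number of genes with a window. The antiviral effectors reach 60.0% for the ISRE core against 3.99% of all genes. The early NF-kB targets have 0 of 9, which at 3.99% is the likeliest count in a list so short.

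The comparison of LPS with unstimulated cultures asks how LPS changes expression, and the part of TLR4 was not tested. For Rsad2 the log2 values were 9.82, 9.79 and 10.02 in unstimulated arrays 1, 2 and 3, and 13.55, 13.62 and 13.64 in LPS arrays 1, 2 and 3. All 3 LPS arrays lay above all 3 unstimulated arrays, with a gap of 3.53 between the lowest LPS and the highest unstimulated value. The share of all rows whose groups part in this way was not counted, so separation alone does not single Rsad2 out. The mean went from 9.87 ± 0.13 to 13.60 ± 0.047 (SD, n = 3 each). The difference was 3.73 ± 0.075 (SE) on the log2 scale, or 13.3-fold with a 95% interval from 11.7-fold to 15.0-fold (limma, Benjamini-Hochberg adjusted p = 1.85e-06 over all 74007 rows). The SE, interval and adjusted p come from a fit that ignores the pairing by animal. With the pairs as a block, limma's adjusted p was 8.41e-05. The increase was far larger than the spread between arrays of either group.

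For Irf7 the log2 values were 10.16, 10.97 and 11.05 in unstimulated arrays 1, 2 and 3, and 12.63, 12.71 and 12.66 in the LPS arrays. Here too the groups did not overlap, again without a share over all rows to set beside it. The lowest LPS value was 1.58 above the highest unstimulated value. Unstimulated array 1 lay apart from the other two, while the LPS arrays lay within 0.076 of each other. The mean went from 10.73 ± 0.49 to 12.67 ± 0.039 (SD, n = 3 each). The difference was 1.94 ± 0.23 (SE), or 3.84-fold with a 95% interval from 2.64-fold to 5.58-fold (limma, Benjamini-Hochberg adjusted p = 0.000946). This fit, too, ignores the pairing by animal. With the pairs as a block, limma's adjusted p was 0.00185. Tested against a 2-fold change instead of no change, Irf7 did not pass (limma's treat, adjusted p = 0.0975), whereas Rsad2 did (adjusted p = 8.33e-06). The treat p-values are unpaired and adjusted over all rows, whereas the interval of Irf7 is for that gene alone.

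**Figure D2:**
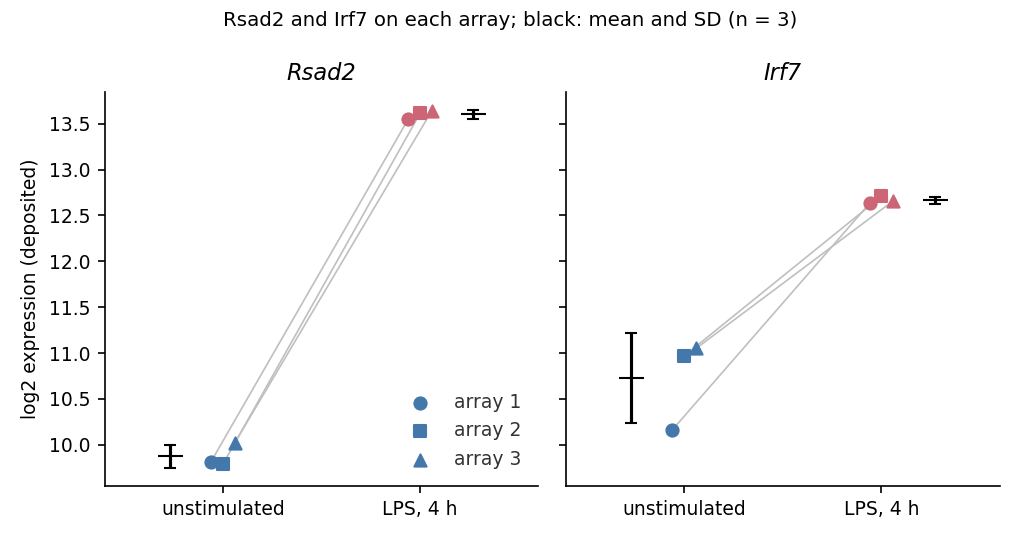
Deposited log2 expression of Rsad2 and Irf7 on each of the 6 arrays; lines join same-numbered arrays, and black marks give the mean and SD of 3 arrays. Every LPS value lies above every unstimulated value in both genes, a separation that was not counted over all rows. Unstimulated array 1 is low for Irf7 at 10.16. Levels of the 2 genes come from different probes and are not to be compared.

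Both measured genes were thus called higher, where the background over the table was 8.75% of rows called higher and 3.00% called at least 2-fold higher. With 2 rows no share of their own is informative. The background itself depends on scaling, as 6472 rows were called higher and 17195 lower (23.2%) in the deposited values, against 23708 and 11887 with each array centred on its median, which moves every difference by 0.15. The differences of Rsad2 and Irf7 were then 3.88 and 2.09. The median difference over all rows was -0.022 as deposited. By size of the rise, Rsad2 ranked 120 and Irf7 ranked 716 among 74007 rows. A larger rise was thus found for 0.161% of rows in the case of Rsad2 and for 0.966% in the case of Irf7. By an exact permutation test on each gene alone, two-sided, p was 0.1 for both, the smallest that 3 against 3 arrays allow when the pairing is ignored. With the pairs kept, an exact permutation of signs within the 3 pairs gave p = 0.25 for both, the smallest that it allows. In these bulk cultures, more RNA per cell and more cells expressing a gene cannot be told apart.

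**Figure D3:**
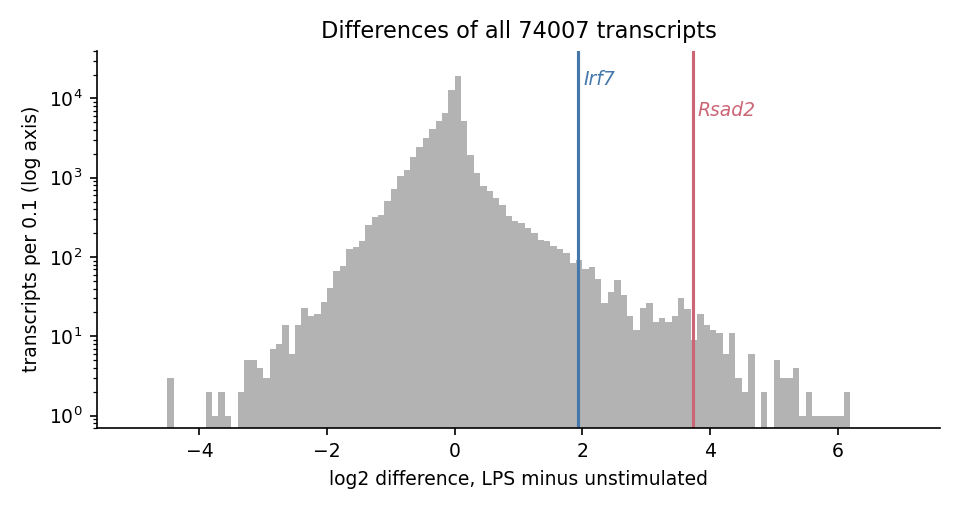
Number of transcripts (log axis) by log2 difference between LPS and unstimulated arrays, in steps of 0.1, with vertical lines at Irf7 (1.94) and Rsad2 (3.73). Both lines lie in the right-hand tail, with larger rises for 715 rows and 119 rows.

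Within same-numbered arrays, Rsad2 rose by 3.74, 3.83 and 3.62 on the log2 scale in pairs 1, 2 and 3, that is 13.3-fold, 14.2-fold and 12.3-fold. The 3 pairs were close, with an SD of 0.10. Irf7 rose by 2.47, 1.74 and 1.61 in the same pairs, that is 5.54-fold, 3.34-fold and 3.05-fold, with an SD of 0.46. Rsad2 rose more than Irf7 in each pair. In the fit that ignores the pairs, the 95% intervals of the log2 differences were 3.55 to 3.91 and 1.40 to 2.48. With the pairs as a block, limma's adjusted p was 8.41e-05 for Rsad2 and 0.00185 for Irf7. The gap between the rises of the 2 genes was not tested, since different probe sets need not respond alike to the same change in RNA. The brightest value on an LPS array lay between 13.99 and 14.29, close above the LPS values of Rsad2. No saturation measure was used here, so any flattening of the Rsad2 rise at the upper end of the scale was not tested.

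The larger spread of Irf7 between pairs came with the unstimulated side. Unstimulated array 1 lay 0.85 below the mean of unstimulated arrays 2 and 3, while LPS array 1 lay 0.052 below the mean of LPS arrays 2 and 3. The gap between the cultures numbered 1 and the others was thus much smaller on the LPS side, where array 1 was still the lowest. For Rsad2 the same 2 gaps were 0.087 and 0.078 in size, also with array 1 below. The SD of Irf7 between unstimulated arrays was 12.7 times that between LPS arrays. That ratio rests on unstimulated array 1: the SD of unstimulated arrays 2 and 3 alone was 0.057, or 1.49 times that between LPS arrays. A larger SD between unstimulated arrays was found for 249 of 74007 rows (0.336%), against 20078 rows (27.1%) in the case of Rsad2. Between LPS arrays, a smaller SD than that of Irf7 was found for 15.3% of rows. The median SD over all rows was 0.078 without and 0.094 with LPS. Against unstimulated arrays 2 and 3 alone, Irf7 was 1.66 higher with LPS, or 3.15-fold, and limma without unstimulated array 1 gave an adjusted p of 7.02e-05. What lowered Irf7 in unstimulated array 1 was not tested.

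**Figure D4:**
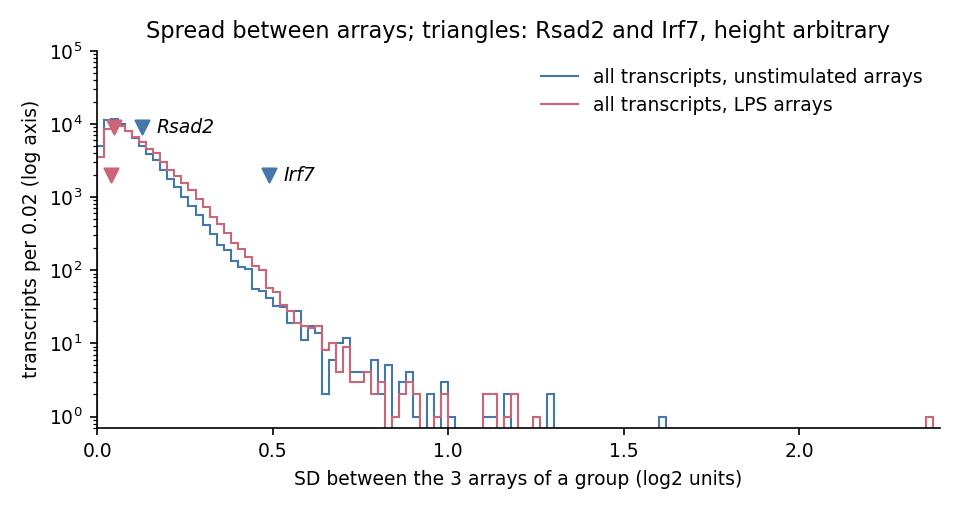
Number of transcripts (log axis) by SD between the 3 arrays of a group in log2 units, for unstimulated (blue) and LPS arrays (red), with triangles at the SDs of Rsad2 and Irf7, whose height has no meaning. Irf7 lies far out among unstimulated arrays at 0.49 and near the lower end among LPS arrays at 0.039.

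Transcripts with the most similar pattern were found by subtracting each row's unstimulated mean from its 6 values and taking the root mean square distance from the average of Rsad2 and Irf7. The closest were ENSMUST00000135558_at at a distance of 0.067 and ENSMUST00000031793_at at 0.079, on 6 arrays. The first had log2 values of 8.67, 9.01 and 9.003 without and 11.65, 11.78 and 11.77 with LPS, a difference of 2.84. The second had 8.69, 9.06 and 9.02 without and 11.70, 11.86 and 11.82 with LPS, a difference of 2.87. Both were lowest in array 1 of each group. So was the average by which they were chosen, so this likeness and the size of their differences are fixed by the choice. These 2 rows were also close to each other on every array and need not be separate measurements, and neither could be given a gene name. Rsad2 and Irf7 themselves were 1.29 apart, because their rises differ in size.

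Neighbours were also taken around each gene alone, with a limit of 0.1 that was not part of the plan. For Irf7, 4 rows lay within a distance of 0.1, between 0.028 and 0.059, and the next was at 0.102. Their differences between groups ran from 1.88 to 2.00, a likeness that the choice by distance fixes. For Rsad2 a single row lay within 0.1, at 0.072, and the next was at 0.104. The rows could not be named, so whether some are other transcripts of the same genes, or share probes with them, was not tested. Neither gene shared all 6 of its values with another row.

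Rsad2 and Irf7 kept their direction in all 17 alternative settings. Settings that change only the block, the rows fitted or the test cannot move a difference. Since every LPS value lay above every unstimulated value, the offset and leaving out arrays could change its size but not its direction. Only the 4 scalings of the arrays could have turned a difference. They moved the median difference over all rows by 0.028 to 0.18. The difference of Rsad2 ran from 3.69 to 3.91 and that of Irf7 from 1.66 to 2.12, so the settings moved Irf7 further in proportion. The lowest value of Irf7 came without unstimulated array 1, and the highest of both genes came with arrays centred on their brighter rows.

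**Figure D5:**
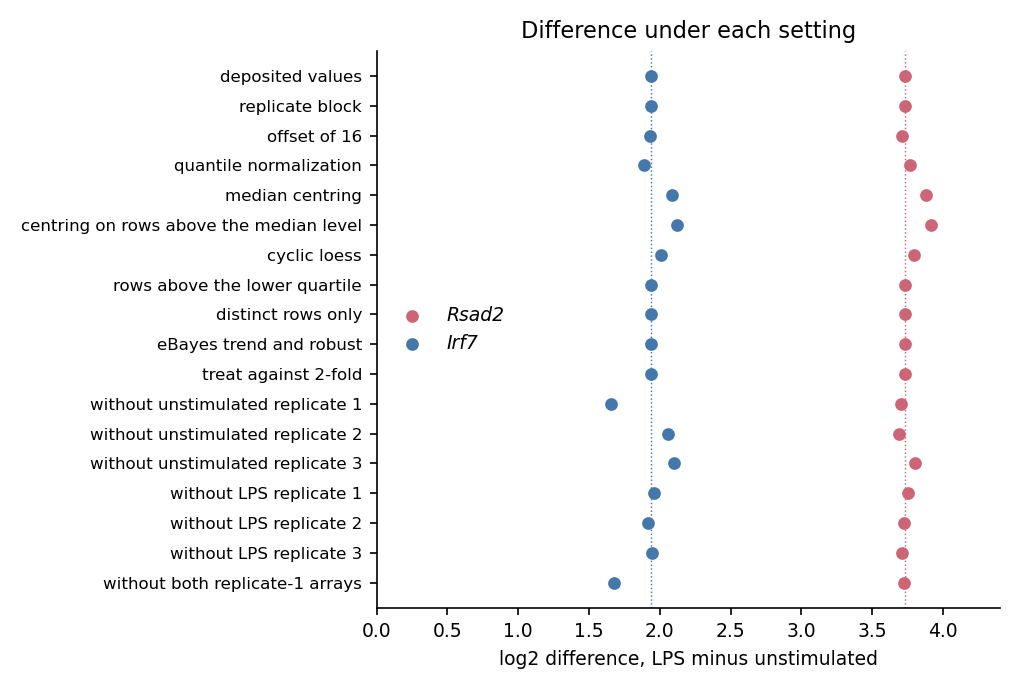
Log2 difference between LPS and unstimulated arrays for Rsad2 (red) and Irf7 (blue) in the deposited values and under 17 alternative settings; dotted lines mark the values as deposited, 3.73 and 1.94. All points lie to the right of 0, though the block, row filters, eBayes and treat leave a difference unmoved by construction. The offset and left-out arrays could not reverse it, because the groups did not overlap. The points of Irf7 furthest to the left are those without unstimulated array 1 at 1.66 and without both arrays numbered 1 at 1.67.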

How the data were processed

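The authors deposited expression as log2 values for transcript-level probe sets, per the series text. Named in the submitters' processing notes are PLIER, which turns the probes of a set into a single value, and Affymetrix Power Tools. The genome build, annotation release, offset and between-array normalization were not given in the sources used here. Arrays were grouped by title. Rows were fitted together with limma 3.58.1 in R 4.3.3 (lmFit and eBayes, two-sided, Benjamini-Hochberg adjustment, threshold 0.05), without filter, block or further scaling, and differences are LPS minus unstimulated. Exact permutation tests used scipy 1.17.1. The fit was tested on simulated data with independent noise and no animal effect, so that test says nothing about the pairing. The number of arrays limits the precision. Members and gene lists were chosen with earlier results of these data known. The rule for named transcripts took the 3 identifiers and the 2 rows most like their average, here that of 2. The pathway and marker lists were not tested for expression, because 0 of the 49997 genes in the RefSeq table carry an Ensembl identifier. The series text pairs cultures by animal. Numbers were read as pairs. Across rows, arrays sharing a number deviated together from their group means (r = 0.50, 0.30 and 0.12), with no bar set beforehand. LPS array 3 correlated more with unstimulated array 2 (r = 0.21), so these values do not settle pair 3.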

Additional observations from a re-analysis of the deposited data

How the results depend on the processing

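Alternatives covered a replicate block, an offset of 16, 4 scalings of the arrays, filters on rows, eBayes and treat settings and each array left out. Leaving out both arrays numbered 1 was added after the data had been seen. Rsad2 stayed past the threshold in 17 of 17, and Irf7 in 16 of 17, the exception being treat against 2-fold (difference 1.94, adjusted p = 0.0975). With the replicate block, limma's adjusted p was 8.41e-05 for Rsad2 and 0.00185 for Irf7, with 7210 rows called higher and 19074 lower (6472 and 17195 without it), and both genes stayed called. Leaving out 1 array gave differences of 3.69 to 3.80 for Rsad2 and 1.66 to 2.10 for Irf7, with 5234 to 6505 rows called higher and 13146 to 15536 lower. Rows called higher numbered 9768 after quantile normalization, 10499 after cyclic loess, 23708 with median centring, 25171 with centring on rows above the median level and 1072 with treat. Rows called lower numbered 11053 with cyclic loess, 10827 with centring on rows above the median level and 515 with treat. The list counts over all rows of a gene were not run, since rows had no gene names.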

Other observations

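Irf7 was not alone in being low in unstimulated array 1. In 96 of 74007 rows, Irf7 included, this array lay below the mean of unstimulated arrays 2 and 3 by at least as much as for Irf7, and in 53 rows it lay above by at least that much. Against unstimulated arrays 2 and 3 alone, 38 of the 96 rows (39.6%) were at least 2-fold higher with LPS and 13 (13.5%) at least 2-fold lower, while the shares over all rows were 2.95% and 2.90%. In the 53 rows the order was turned, with 5 (9.43%) at least 2-fold higher and 33 (62.3%) at least 2-fold lower. LPS array 1 lay below LPS arrays 2 and 3 by a median of 0.28 in the 96 rows, while for Irf7 it was within 0.052. The rows were picked for their spread, they need not be separate measurements, and they could not be named, so the counts describe these arrays and were not tested.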
